A study of Gasterosteus aculeatus with 36 samples.

Results

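Whole threespine stickleback (Gasterosteus aculeatus) embryos of both sexes were compared at stage 23, the last sampled stage before hatching, when circulation over the yolk sac is complete. All libraries labelled stage 23 were taken, 3 from males and 3 from females, which are 6 of the 36 libraries in the series, and all 25258 genes of the count table were kept, genes on the sex chromosomes included. The other 30 libraries come from stages 17 and 20 and from larvae at 0, 4 and 8 days post hatching (dph), with 3 males and 3 females at each, and enter the fit to share 1 estimate of the spread between fish and to give the sex difference at the other stages. All fish were laboratory-reared offspring of wild-caught marine fish from Port Gardner Bay (Washington) or the Pacific coast of Japan, none is labelled with a treatment or a transgene, and neither the population nor the clutch of each fish is given. Sex is known from the sample titles. The p-values below therefore measure the spread between these fish, and a difference between clutches or populations that fell unevenly on the sexes cannot be told apart from a difference between the sexes.

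In this species females carry a pair of X chromosomes and males carry an X and a Y. The X and Y still exchange sequence at one end, the pseudoautosomal region, while over the rest of its length the Y has lost many genes and the remaining Y copies have diverged from their X partners. A gene with a working copy on the X alone is present in single dose in males, and animals differ in how far expression is raised to make up for this: mammals silence an X in females, fruit flies raise the output of the male X, and many fishes do neither along the whole chromosome. The Y also carries amhy, a duplicate of amh, which encodes anti-Mullerian hormone, a ligand of the TGF-beta family that acts through the receptor amhrII on cells of the developing gonad.

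The expression of amh and amhy can be told apart only through the bases at which the copies differ, so the same exon of each is shown here, taken from the study's own gene sequences on the assembly GAculeatus_UGA_version5, with differing bases in capitals. Exon 4 is 112 bases long in both genes, of which 97 are identical (86.6%), and the longest run without a difference is 16 bases. Among the exons of equal length, identity was lowest in exon 7, at 74.2%. The copy named amh lies on chromosome 8 and amhy (LOC120812167) on the Y.
amh exon 4: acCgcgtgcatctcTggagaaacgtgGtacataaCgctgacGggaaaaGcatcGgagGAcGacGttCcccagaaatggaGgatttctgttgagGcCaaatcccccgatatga
amhy exon 4: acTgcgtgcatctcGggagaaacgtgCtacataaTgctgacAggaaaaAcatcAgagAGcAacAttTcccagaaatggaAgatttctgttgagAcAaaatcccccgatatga

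The labels of sex were checked first with amhy. Its normalized read count was 0 in all 3 females and 13.6, 8.6 and 11.1 in the 3 males. The sexes did not overlap. Taking 3 reads over the 3 females together as the floor, amhy was at least 22.8-fold higher in males (edgeR quasi-likelihood test, adjusted p = 1.47e-04). The autosomal amh stood at 32.0, 17.9 and 16.4 in females and 17, 12.9 and 24.0 in males, so the sexes overlapped (log2 fold change -0.32 ± 0.40 SE, adjusted p = 1). Throughout, a normalized read count is the number of read fragments assigned to a gene divided by the size factor of its library, and a log2 fold change is males minus females.

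Libraries held 23107751 to 52089185 counted reads, and the 3 female libraries were deeper (from 31354682) than 2 of the 3 male libraries. X-linked genes took 3.48% to 3.67% of the reads in females and 1.90% to 2.01% in males. Y-linked genes took 0.325% to 0.429% in females and 1.33% to 1.70% in males. No library pair of the 6 agreed within counting noise over autosomal genes (chi-square per degree of freedom from 13.5 to 43.4), so each was counted as 1 fish.

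Genes called different between the sexes at stage 23 lay mostly on the sex chromosomes. Of the 22168 genes with enough reads to be tested, 1090 passed an adjusted p of 0.05, which is 4.92% of those tested, with 702 higher in females (3.17%) and 388 higher in males (1.75%). X-linked genes gave 609 of the 702 and Y-linked genes gave 351 of the 388. Among autosomal genes 53 of 18865 were called, or 0.281%, and 74 of 1967 genes that could not be placed on a chromosome were called, or 3.76%. The 3 fish of one sex all lay above the 3 of the other in 13.8% of the genes tested. The median log2 fold change was -0.95 for X-linked, 5.28 for Y-linked, -0.01 for autosomal and -0.02 for unplaced genes.

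**Figure D1:**
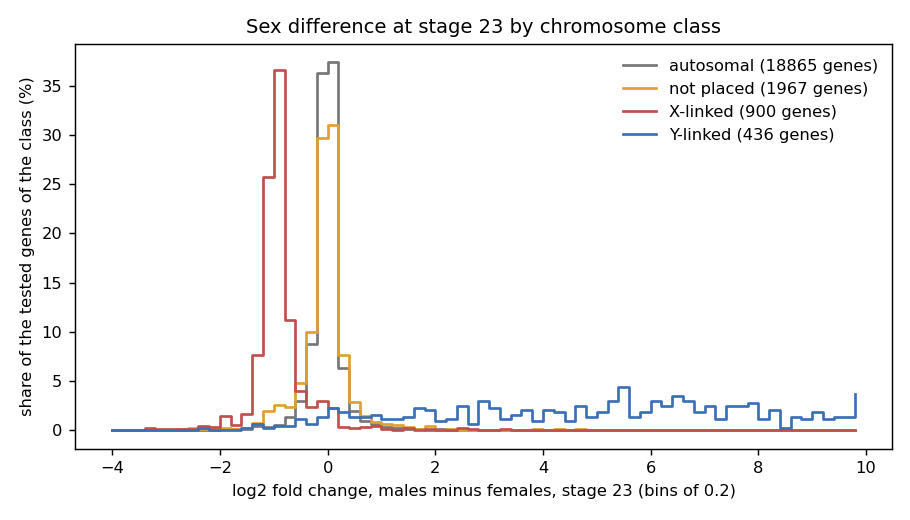
Distribution of the log2 fold change (males minus females) of the tested genes at stage 23, as the share of each chromosome class in bins of 0.2, with values beyond the axis ends put in the end bins. Autosomal genes peak at 0, X-linked genes near -1, and Y-linked genes spread over positive values around a median of 5.28.

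The X chromosome stood out for how evenly its genes differed. Of 900 tested X-linked genes, 609 were called higher in females (67.7%) and 2 higher in males (0.222%), or 67.9% together, and in 734 of them (81.6%) every female lay above every male, against 3.8% of autosomal genes. The quartiles of the log2 fold change of X-linked genes were -1.08 and -0.80, and the median ratio of females to males was 1.93. For 686 of the 900 genes the 95% interval of the log2 fold change held -1, the value of a doubling, and left out 0.

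Among called X-linked genes with a gene name or a product description, the 10 with the smallest p-values were taken. These 10 serve general functions of the cell, and each was higher in females by close to 1 on the log2 scale. For ireb2, an iron-sensing protein that binds messenger RNAs of iron metabolism, the counts were 1798, 1744 and 1848 in females and 953, 891 and 885 in males. Every female was well above every male, and the spread within a sex was small beside the gap (log2 fold change -1.0 ± 0.08 SE, adjusted p = 7.13e-11). For tjp1b, a scaffold protein of tight junctions, females had 1383, 1572 and 1465 and males 726, 689 and 695, again with a wide gap (-1.08 ± 0.09, adjusted p = 1.04e-10). The other 8 were eif4g2b (a translation initiation factor), ptdss2 (phosphatidylserine synthesis), hexa (a subunit of lysosomal hexosaminidase), arih1 (a ubiquitin ligase), pus7 (a pseudouridine synthase), snupn (nuclear import of small nuclear RNPs), mon2 (traffic between endosomes and Golgi) and snx1a (a sorting nexin), with log2 fold changes from -1.20 for hexa to -0.96 for arih1. All 10 kept their call under each of the 12 other settings tried.

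This difference did not run along the whole chromosome. X-linked genes were ordered along the X as in the RefSeq annotation of a later assembly. None of the first 40 tested genes was called, up to place 68, and their median log2 fold change was -0.14. Their quartiles were -0.54 and 0.1. In 17 of the 40 the interval held 0 and left out -1, and in another 17 it held both. From place 69 on, 600 of 798 tested genes were called (75.2%), with a median of -0.97. The boundary was set after the values were seen, at the first called gene.

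Genes on either side of the boundary are given as examples, chosen after their values were seen. The call at place 69 and the lack of calls before it follow from how the boundary was set. Before it, arntl1a, a transcription factor of the circadian clock, had 907, 828 and 987 in females and 807, 916 and 802 in males, which overlapped (-0.13 ± 0.13 SE, adjusted p = 1), and aars1, the alanyl-tRNA synthetase, had a log2 fold change of -0.34 ± 0.14 (adjusted p = 0.362). At place 69, pnp6, a purine nucleoside phosphorylase, had 320, 208 and 238 in females and 124, 91.2 and 135 in males, with no overlap (-1.15 ± 0.22, adjusted p = 4.20e-04). The first 25 tested genes of the order had a median of -0.09 and the second 25 a median of -0.74 with 9 called, while every later group of 25 had a median between -1.10 and -0.89. The last group, with 13 genes, had a median of -1.01.

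**Figure D2:**
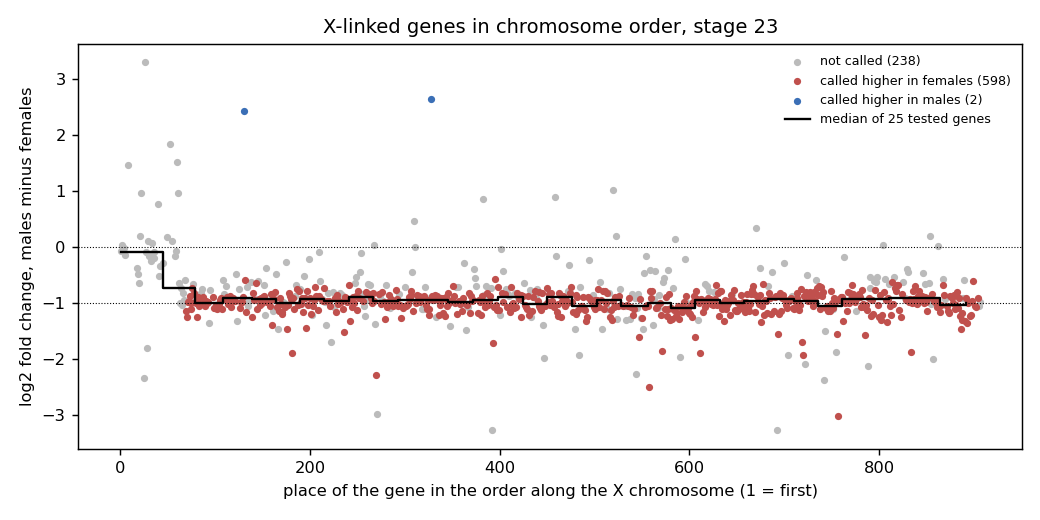
Log2 fold change (males minus females) of each tested X-linked gene at stage 23 against its place in the order along the X, with called genes in colour, the median of each 25 tested genes as a black line and dotted lines at 0 and -1. The line runs at -0.09 over the first group and stays between -1.10 and -0.89 from the third group of 25 on.

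Some well-expressed X-linked genes that are not placed in the leading stretch had values near 0. Averaged over the 6 fish, 585 of them reached 100 normalized counts. Of these, 17 had an interval that left out -1 and held 0. Only 6 of the 17 have a place in the order, and whether the rest lie in the leading stretch is not known. One of the 6 placed genes was dld, at 1186, 1349 and 1157 in females and 1363, 1488 and 1264 in males, where the sexes overlapped (0.14 ± 0.08 SE, adjusted p = 0.901). The placement of dld on the X rests on its symbol, matched between the authors' annotation and a later one. The autosomal call dldh, below, rests on the same kind of match. Other genes of this kind were sqor, a sulfide-oxidising enzyme of mitochondria (-0.28 ± 0.23), fezf1, a forebrain transcription factor (-0.16 ± 0.28), and deaf1, a transcription factor (0.19 ± 0.21). These 4 were chosen after their values were seen.

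For 15 of the 900 X-linked genes (1.67%) the whole interval lay below -1. The intervals are not adjusted for the number of genes, and 2 of the 15 were not called. The 13 called include sycp3, a protein of the axes of meiotic chromosomes, at 131, 129 and 107 in females and 39.1, 37.8 and 43.7 in males (-1.62 ± 0.27 SE, adjusted p = 4.19e-05), with no overlap, and cald1b, a caldesmon that binds actin, at 193, 204 and 235 against 59.6, 60.2 and 53.6 (-1.89 ± 0.26, adjusted p = 2.08e-06). The genes higher in males were b3gnt9, an N-acetylglucosaminyltransferase, and LOC120812675. Counts for b3gnt9 were 35.9, 25.2 and 24.5 in females and 161, 114 and 196 in males. No female reached the lowest male (2.42 ± 0.28, adjusted p = 6.94e-08). LOC120812675 stood at 6.95, 1.99 and 10.1 in females and 48.5, 40.4 and 38.8 in males (2.64 ± 0.35, adjusted p = 9.93e-07), and its gene identifier lies among those of Y-linked genes although the later annotation places it on the X. At the other 5 stages, which are other fish, 469 to 548 of the 611 called X-linked genes were called in the same direction, 416 of them at all 5 and 9 at none.

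Y-linked genes were counted in males and, for most, at a small part of that level in females. Of the 622 Y-linked genes in the table, 436 were tested, 351 were called higher in males (80.5%), and in 369 (84.6%) every male lay above every female, against 5.07% of autosomal genes. For 56 tested genes no read was counted in any female. With these genes set at the 3-read floor, the median log2 fold change of the tested Y-linked genes was 4.75, or 27.0-fold. The called genes had a median of 176 normalized counts in males and 1.81 in females, and 50 of them averaged at least 1000 in males.

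The Y-linked genes carry identifiers but no names in the tables used here, apart from amhy, so the following were chosen after their values were seen. LOC120812678 had 21355, 19411 and 23119 in males and 225, 244 and 192 in females, a 95.5-fold difference (6.58 ± 0.52 SE, adjusted p = 2.56e-11). LOC120812524 had 2256, 1983 and 2053 in males and 3.09, 5.31 and 2.89 in females (9.13 ± 0.49, adjusted p = 3.76e-15). Both separated the sexes completely. LOC120812197 was high in both sexes, at 53965, 68528 and 46054 in females and 127940, 62915 and 108993 in males. Male 2 fell within the female range, and the gene was not called (0.81 ± 0.48, adjusted p = 0.929). The 84 uncalled genes had a median female to male ratio of 0.714.

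Reads assigned to Y-linked genes in females were unevenly spread. In 299 of the 436 tested genes the female mean was at most 10% of the male mean, and in 24 it was above the male mean. LOC120812741, placed on the Y by the identifiers around it, was the single one called higher in females (0.229%, of 80.7% called either way), at 110, 82.4 and 80.8 against 35.7, 28.4 and 38.8 in males (-1.43 ± 0.33 SE, adjusted p = 0.00389). Only uniquely aligned reads were counted, so how reads of near-identical X and Y copies were divided between them was not tested.

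**Figure D3:**
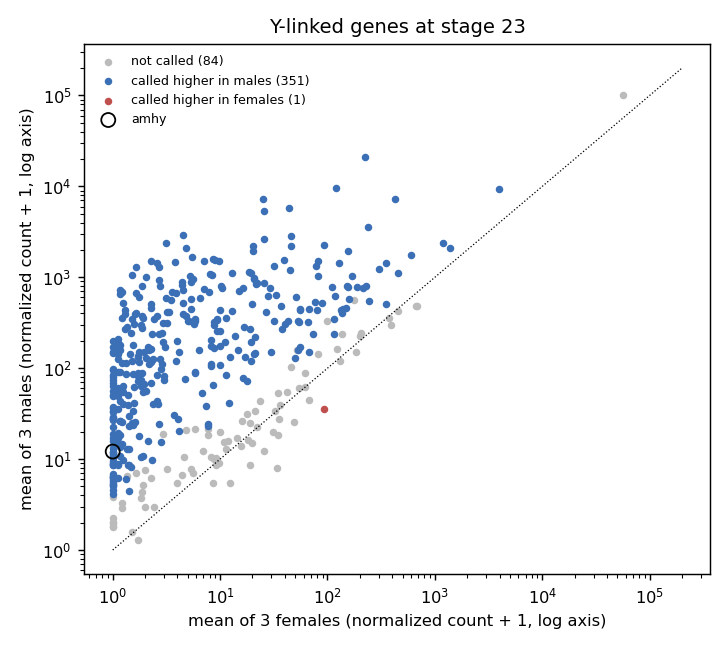
Mean normalized count of each tested Y-linked gene in the 3 males against the 3 females at stage 23, with 1 added to both means and log axes, and a dotted line of equality. The 351 genes called higher in males lie above the line, many at the left edge with no reads in females, and amhy is circled at a male mean of 11.1.

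Genes without a chromosome in the tables held both kinds of pattern. Of the 74 called, 63 were higher in females (3.2%) and 11 in males (0.559%). Those higher in females had a median log2 fold change of -0.97, and in 61 of the 63 the interval held -1. They include irf7, a transcription factor of the interferon response, at 321, 367 and 366 in females and 206, 209 and 165 in males (-0.88 ± 0.15 SE, adjusted p = 5.22e-05), and tnnt3a, the troponin T of fast muscle, at 18900, 18370 and 14936 against 9938, 5220 and 8635 (-1.15 ± 0.32, adjusted p = 0.0271). Females lay above males throughout for both. The call of tnnt3a was lost on leaving out female 1, female 2, male 2 or male 3, with adjusted p up to 0.245. Of the 63, 61 were also called higher in females at 1 or more other stages, in other fish.

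The unplaced genes higher in males numbered 11, and 2 of them have names. The table lists hsp90b1, an endoplasmic reticulum chaperone of the HSP90 family, at 58.7, 93.0 and 172 in females and 5958, 5746 and 6099 in males (5.77 ± 0.49 SE, adjusted p = 1.23e-10). The GTPase gene kras stood at 555, 567 and 520 in females and 2217, 2034 and 2247 in males, close to 4-fold (1.97 ± 0.14, adjusted p = 2.84e-12). Neither overlapped between the sexes, and across the other 5 stages the highest of 15 females stayed below the lowest of 15 males for each, at 297 against 2988 for hsp90b1 and 744 against 1249 for kras. LOC120812907 and LOC120812916 were at 0 in all females, and were at least 52.8-fold and 50.6-fold higher in males.

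Other unplaced genes separated the sexes at stage 23 and were called in the same direction at none of the other 5 stages. LOC120814012 had 6.18, 4.65 and 10.6 in females and 1223, 1112 and 1454 in males (7.40 ± 1.49 SE, adjusted p = 7.38e-04). At the other stages the 15 females ranged from 2.02 to 1092 and the 15 males from 1.87 to 1094. LOC120814662 stood at 44.3, 42.1 and 59 in stage 23 males and at most 0.772 in females, yet was called higher in females at stage 20 (means of 40.4 against 1.17, log2 fold change -5.02, adjusted p = 0.0450). LOC120815089 stood at 27.2, 31.0 and 31.4 in males and at most 1.54 in females, reached 59.97 in a female of another stage, and lost its call without female 2 or female 3 (adjusted p up to 0.0699). These 3 were chosen after their values were seen. Whether the difference of stage 23 follows sex or the parentage of these 6 fish was not tested.

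Outside the sex chromosomes the calls were few and sensitive to how they were adjusted. The 53 autosomal genes, 29 higher in females (0.154%) and 24 in males (0.127%), passed a threshold set over all 22168 genes. Adjusted over the 18865 autosomal genes alone, 6 were called: caspa, dldh, ppp1r15b, LOC120812612, LOC120821928 and sh3glb2a. Of these, the identifier of dldh lies among those of X-linked genes and that of LOC120812612 among those of Y-linked genes. An unadjusted p under 0.05 was reached by 524 autosomal genes, 2.78% of those tested. That is a smaller share than the 0.05 this threshold gives where no gene differs. The adjusted p-values of autosomal genes given below are over all 22168 genes. Autosomal calls other than those 6 passed only with that wider adjustment. Of the 53, 46 separated the sexes without overlap, which 8.87% of all tested autosomal genes did. The calls and the separation rest on the same fish, so the separation adds no support to the calls. The autosomal genes named below for the size of their difference were picked from those 46.

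Some of these 53 were called at other stages too. Of them, 3 were called in the same direction at all 5 other stages and 2 more at 4 of them, while 45 were called in the same direction at no other stage. At another stage 2 of the 45 were called the opposite way, LOC120821928 and LOC120817054. The recurring genes higher in females were dldh, the shared dehydrogenase subunit of mitochondrial 2-oxoacid complexes, ppp1r15b, which directs a phosphatase to the initiation factor eIF2, and ptprb, a receptor phosphatase of endothelium. Counts of dldh were 4681, 4130 and 4064 in females and 1992, 2108 and 2105 in males (-1.07 ± 0.11 SE, adjusted p = 1.47e-08). The ratio for all 3 was near 2, and the identifier of dldh lies among those of X-linked genes.

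The recurring genes higher in males were LOC120812612 and LOC120812489. LOC120812612 stood at 4.63, 5.31 and 2.41 in females and 74.0, 77.4 and 87.4 in males, an 18.8-fold difference with no overlap (4.23 ± 0.42 SE, adjusted p = 4.48e-09). LOC120812489 had 87.6, 56.5 and 98.1 in females and 268, 238 and 393 in males (1.86 ± 0.39, adjusted p = 0.00121). Both are autosomal in the later annotation, yet both identifiers lie among those of Y-linked genes.

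The count of caspa, which in zebrafish encodes an inflammasome caspase that processes interleukin-1, was 73.0, 53.8 and 114 in females and 473, 413 and 419 in males. Every male was far above every female (2.41 ± 0.44 SE, adjusted p = 1.73e-04). The MHC class II beta chain LOC120821928 had 48.6, 35.2 and 53.9 in females and 155, 193 and 191 in males (1.94 ± 0.34, adjusted p = 1.04e-04). A second class II beta chain, LOC120815971, had 6.56, 14 and 10.1 against 54.5, 47.3 and 52.3 (2.33 ± 0.57, adjusted p = 0.00657), and its call was lost without female 1 (adjusted p = 0.0692). At stage 20 LOC120821928 was instead called higher in females, with means of 160 against 71.8 in males (-1.15, adjusted p = 0.0486). The log2 fold change of LOC120815971 was below 0 at stage 20 (-1.14), 0 dph (-0.86) and 4 dph (-1.14), without a call. Class II genes form a family of similar copies that differ between individuals, so the division of reads among copies is uncertain.

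Smaller differences were seen in psme2, casp10 and nmi, none of them called when p-values were adjusted over autosomal genes alone. For psme2, a subunit of the proteasome activator of antigen processing, females had 126, 88.3 and 93.3 and males 200, 174 and 199 (0.87 ± 0.21 SE, adjusted p = 0.00527). For casp10, annotated as a truncated caspase-10, they had 74.5, 61.1 and 54.4 against 133, 92.9 and 106 (0.78 ± 0.19, adjusted p = 0.00569), and for nmi, an interferon-induced protein, 104, 98.3 and 102 against 166, 173 and 147 (0.65 ± 0.19, adjusted p = 0.0388). None of the 3 overlapped, and psme2 was called in the same direction at 2 other stages and casp10 and nmi at 1. Of the 3, casp10 and nmi were chosen after their values were seen. Leaving out single fish ended the call of psme2 (without female 2, adjusted p = 0.0524), of casp10 (without female 3 or male 1, up to 0.0833) and of nmi (5 of the 6 fish, all but male 3, up to 0.172). With the 6 stage 23 libraries alone, casp10 was not called either.

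The antigen processing and interferon response list does not hold caspa, psme2, casp10, nmi or the class II beta chains above. Of its 23 tested members none was called higher in males, as were 0.127% of autosomal genes tested and 1.75% of all genes tested, Y-linked genes included. The 2 called higher in females were irf7, unplaced, and the X-linked pdia3, a disulfide isomerase of MHC class I loading. Counts of pdia3 were 16155, 9886 and 9953 in females against 5994, 5680 and 8720 in males (-0.84 ± 0.22 SE, adjusted p = 0.0145). The call of pdia3 was lost without female 1 (adjusted p = 0.336), male 1 or male 2. The median of the 18 autosomal members was 0.21. The white blood cell list, with 21 tested, 18 of them autosomal, had no call, where 0.281% of all autosomal genes tested were called. Its autosomal median was 0.03, with summed counts of 5704 to 6957 in females and 6162 to 7769 in males.

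The other named genes higher in males had varied roles. In brdt, a chromatin reader of acetylated histones known from male germ cells of mammals, females had 34.4, 27.9 and 26.9 and males 65.5, 68.0 and 74.5 (1.19 ± 0.33 SE, adjusted p = 0.0215). At other stages 15 females ranged from 34.3 to 105 and 15 males from 42.4 to 113, so the stage 23 males lay within the range of the other stages and the stage 23 females at or below its lower end. The dopamine receptor gene LOC120825612 (1.48 ± 0.43), the cation channel gene trpc4b (1.03 ± 0.29), the orphan receptor gene gpr160 (0.95 ± 0.28), the cilium transport gene ift46 (0.86 ± 0.23) and LOC120810095 (1.32 ± 0.39) had adjusted p between 0.0169 and 0.0472. Leaving out single fish ended the call of each, and of brdt, for 3 to 5 of the 6 fish, with adjusted p up to 0.391.

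Among the autosomal genes higher in females, LOC120826806, similar to VWA5A, had 130, 122 and 117 in females and 14.5, 31.0 and 19.1 in males (-2.54 ± 0.73 SE, adjusted p = 0.0346). LOC120822843, similar to myelin-oligodendrocyte glycoprotein, had 107, 53.8 and 49.5 against 28.1, 6.02 and 4.31 (-2.52 ± 0.65, adjusted p = 0.0124). Neither overlapped at stage 23, but 12 of 15 females and 11 of 15 males (LOC120826806) or 12 and 13 (LOC120822843) of other stages were at or below the highest stage 23 female. The call of the first was lost on leaving out any single fish (adjusted p up to 0.189) and of the second without female 1, male 2 or male 3 (up to 0.142).

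The complement gene cfi was also higher in females. The counts of cfi, a plasma protease that inactivates complement, were 1044, 1550 and 1258 in females and 719, 699 and 525 in males, with every female above every male (-1.0 ± 0.22 SE, adjusted p = 0.00175). Its call held under all 12 settings, but not when p-values were adjusted over autosomal genes alone. The liver and yolk syncytium list, which covers the main source of plasma proteins, had no call among 20 tested genes. All 20 are autosomal, and 0.281% of all autosomal genes tested were called. The median of the list was -0.10, and its summed counts were 162054 to 186574 in females and 158473 to 173986 in males. For asah2, a ceramidase, counts were 34.7, 55.8 and 51.0 against 24, 18.1 and 12.3 (-1.41 ± 0.33, adjusted p = 0.00452), and the call was lost without male 3 (adjusted p = 0.0828).

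The remaining named genes of this direction were zanl, similar to the sperm protein zonadhesin (-1.68 ± 0.41 SE), tmem151ba (-1.43 ± 0.37), kbtbd12 (-1.27 ± 0.31), LOC120822776 (-2.47 ± 0.74) and LOC120817054, similar to the stress-induced inhibitor of mTOR signalling DDIT4 (-0.99 ± 0.28). At 0 dph LOC120817054 was called the opposite way, with means of 188 in females and 378 in males (1.0, adjusted p = 0.00954). At stage 23 the adjusted p of these 5 genes lay between 0.00673 and 0.0458. Each lost its call on leaving out at least 2 of the 6 fish, with adjusted p up to 0.248. In all, 8 of the 24 named autosomal genes were called under every one of the 12 settings: caspa, LOC120821928, LOC120812612, LOC120812489, ptprb, ppp1r15b, dldh and cfi. Of these 8, LOC120812489, ptprb and cfi were not called when p-values were adjusted over autosomal genes alone.

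**Figure D4:**
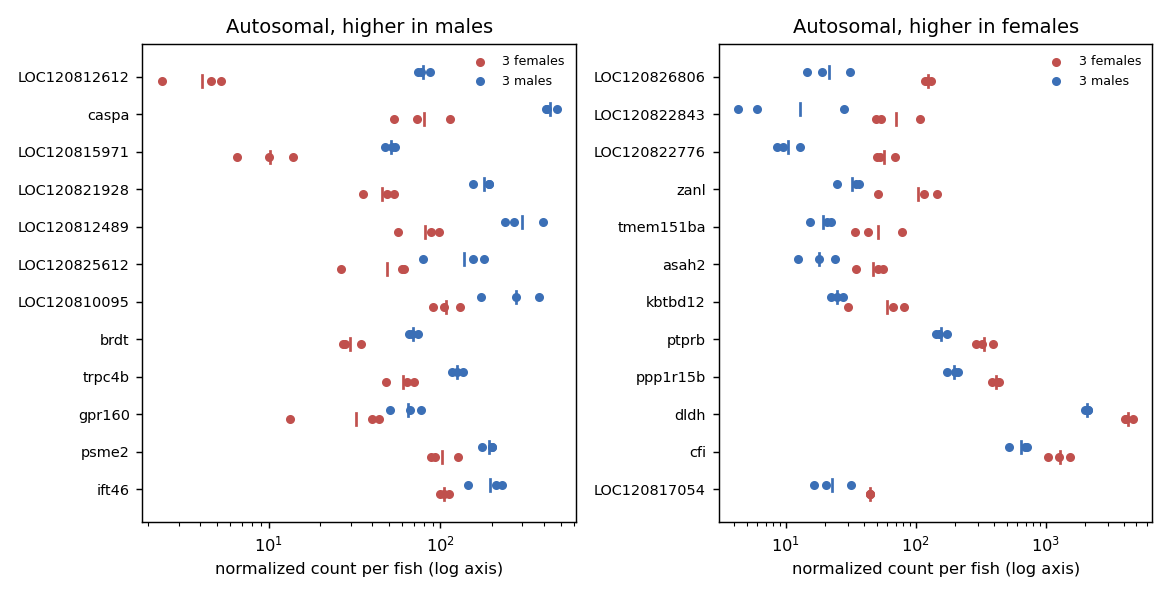
Normalized count in each stage 23 fish (points, log axis) and mean of each sex (vertical bars) for the 12 autosomal genes with the largest difference in each direction among those called without overlap and with a mean of at least 20. Males of caspa sit at 413 to 473 and females at 53.8 to 114, while gpr160 and kbtbd12 come closest to overlapping.

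Of all genes tested, sh3glb2a alone passed the threshold in the test of the stage 23 sex difference against the mean of the other 5 stages. The gene encodes an endophilin, a protein that bends membranes. Counts were 553, 580 and 568 in females and 649, 1124 and 1340 in males (0.86 ± 0.14 SE, adjusted p = 4.13e-05), and the difference from the other stages was 0.91 ± 0.15 on the log2 scale (adjusted p = 0.0392). The SD was 13.4 in females and 354 in males, while the SE rests on the spread shared by all 36 libraries. Among the 12 other settings the adjusted p of the stage 23 difference rose to 0.0494. Across the other 30 fish the count ranged from 735 to 1419 in females and from 751 to 1311 in males, so the 3 stage 23 females and male 1 fell below every fish of every other stage. Over all 22168 genes this test gave 1 call, or 0.00451%, and 685 genes had an unadjusted p under 0.05. The call was lost without female 3 or male 2 and when untested low genes were added, and the number of genes called rose to 7 without female 1.

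**Figure D5:**
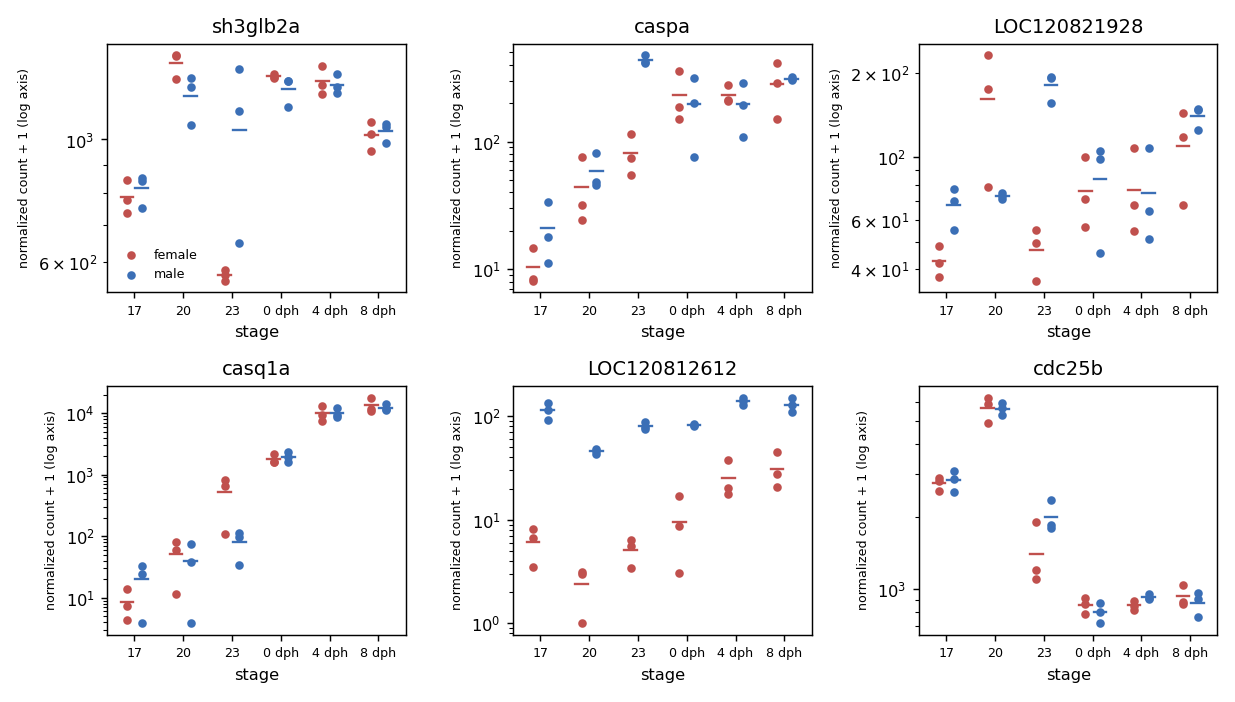
Normalized count plus 1 (log axis, each panel on its own scale) in every fish of both sexes at the 6 stages, with a bar at the mean of each sex, for sh3glb2a, caspa, LOC120821928, casq1a, LOC120812612 and cdc25b. The 3 stage 23 females of sh3glb2a lie at 553 to 580, below all other stages, and the mean of LOC120812612 is higher in males at each stage.

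Genes that direct differentiation of the gonad were not called. Of the testis list 11 genes were tested and of the ovary list 15, with medians of -0.09 and -0.04 and no call in either. All of them are autosomal, a class in which 0.281% of the genes tested were called. Lists of this size would hold few calls at that share. In sox9b (LOC120827768), a testis and cartilage transcription factor, females had 1728, 2193 and 1893 and males 1942, 2036 and 2146, which overlapped (0.06 ± 0.10 SE, adjusted p = 1). The ovarian transcription factor gene foxl2a had 292, 227 and 241 against 218, 234 and 240 (-0.16 ± 0.16, adjusted p = 1), and nr5a1a, a regulator of steroid synthesis, had a log2 fold change of -0.12 ± 0.29. These are levels of whole embryos, in which most of the counted RNA need not come from the gonad, and fewer cells of a type cannot be told apart from less RNA per cell.

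Some gonad genes were too low to compare. The male differentiation gene dmrt1, which encodes a transcription factor, was at 0.66 to 5.41 in females and 0 to 2.46 in males. The aromatase gene cyp19a1a (LOC120811580) was at 0 to 0.96 and 0.62 to 1.72, and neither was tested. The growth factor gene gsdf, higher in testis than ovary in many fishes, had 3.86, 1.33 and 2.89 in females and 0.851, 0 and 0.616 in males (-2.28 ± 0.96 SE, adjusted p = 0.369). The receptor gene amhrII (LOC120835457) had 0.386, 1.99 and 1.4 against 7.66, 2.58 and 5.54 (2.05 ± 0.80, adjusted p = 0.256). Every male was above every female for amhrII and below for gsdf, and neither was called. For hsd17b1, an enzyme of estrogen synthesis, 5 of the 6 fish had under 1 normalized count (adjusted p = 1).

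The germ cell genes that were called are X-linked, a class in which 67.7% of the genes tested were called higher in females. None of the 25 autosomal members tested was called. Of 30 tested members of the germ cell list, 2 were called, both higher in females: sycp3, above, and tdrd12, a tudor protein of the piRNA pathway, at 16.2, 45.8 and 43.8 in females and 8.51, 11.2 and 0 in males (-2.50 ± 0.70 SE, adjusted p = 0.0249). The call of tdrd12 was lost without female 2, female 3, male 1 or male 3 (adjusted p up to 0.206). The defining germ cell gene ddx4 (vasa) had 11.2, 17 and 10.6 in females and 26.4, 9.46 and 12.3 in males (0.29 ± 0.43, adjusted p = 1), and piwil1 had 22.0, 15.9 and 17.8 against 24.7, 16.3 and 26.5 (0.25 ± 0.39, adjusted p = 1). Both overlapped. The summed count of the list was 2377 to 2624 in females and 2352 to 2846 in males.

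Over all 21 lists 545 genes were tested and 20 were called (3.67%), beside 4.92% of all genes tested. The 2 shares cover different mixes of chromosomes, since Y-linked genes gave many calls overall and none in the lists. Of 26 X-linked members 15 were called, against 67.9% of all X-linked genes tested. Of the 20, 15 were X-linked, 3 unplaced and 2 autosomal, 18 were higher in females and 9 lists had no call. Of 493 autosomal members the 2 called were casq1a and cdc25b, where 0.281% of all autosomal genes tested were called. The calls in the TGF-beta and BMP list were the X-linked smad3b, a mediator of TGF-beta signals, at 454, 490 and 459 in females and 271, 241 and 250 in males (-0.90 ± 0.12 SE, adjusted p = 1.81e-06), and smad6b, an inhibitor of BMP signals (-0.84 ± 0.15, adjusted p = 1.86e-04). In the steroid list it was hsd17b12a, an enzyme of long-chain fatty acid and steroid metabolism (-1.17 ± 0.14, adjusted p = 2.47e-07). In each of these the females lay above the males without overlap.

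The remaining list calls were X-linked genes of tissues throughout the embryo. In endothelium and blood precursors the regulator lmo2 was at 183, 159 and 136 in females and 92.8, 74.8 and 80.0 in males (-0.97 ± 0.17 SE, adjusted p = 1.01e-04). In the pigment list kitlga, a ligand for receptors on pigment cells and germ cells, was at -1.0 ± 0.20 (adjusted p = 7.98e-04). In the nervous system cntn1a, a neuronal adhesion protein (-1.03 ± 0.19), slc17a6a, a vesicular glutamate transporter (-0.81 ± 0.21), and ascl1b, a neurogenic transcription factor (-0.58 ± 0.17), had adjusted p of 2.04e-04, 0.0109 and 0.0496. The retinal gene rlbp1b (-1.15 ± 0.24), the cartilage aggrecan gene acanb (-1.16 ± 0.29), the mitotic kinesin gene kif23 (-0.92 ± 0.14) and the cochaperone gene fkbp4 (-1.15 ± 0.13) complete them. Leaving out single fish ended the calls of ascl1b (5 of 6 fish), acanb (3) and slc17a6a (2), with adjusted p up to 0.496.

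Of the skeletal muscle list 2 of 31 tested genes were called, the unplaced tnnt3a and the autosomal casq1a. The share called was 0.281% of autosomal, 3.76% of unplaced and 4.92% of all genes tested. The autosomal skeletal muscle gene casq1a, the calcium store protein of fast muscle, was at 109, 832 and 651 in females and 113, 32.7 and 96.1 in males, so female 1 lay within the male range (-2.71 ± 0.55 SE, adjusted p = 8.80e-04). The level of casq1a went from at most 78.2 at stage 20 to at least 1580 at 0 dph. Of 26 autosomal members of the skeletal muscle list, 3 had a log2 fold change above 0 and the median was -0.16, and of 18 heart genes 1 was above 0, with a median of -0.22 and no call. Over all autosomal genes tested, 9116 were above 0 and 9701 below, and 0.281% were called. Without male 2, 8 of the 26 muscle genes were above 0 and the median was -0.09, and without female 2 these were 10 and -0.03. The heart median stayed between -0.27 and -0.19 on leaving out any fish. The summed counts of the muscle list were 218651 to 288887 in females and 169444 to 261088 in males, and of the heart list 6181 to 7518 and 5619 to 6498.

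The one autosomal cell cycle list member called was cdc25b. The mitotic phosphatase gene cdc25b was at 1103, 1891 and 1192 in females and 1852, 2347 and 1787 in males, so female 2 lay within the male range (0.50 ± 0.15 SE, adjusted p = 0.0350). Its call was lost without female 1, female 3 or male 2, with adjusted p up to 0.381. The call was also lost with the 6 stage 23 libraries alone. The securin gene pttg1, which restrains the separation of sister chromatids, was at 244, 227 and 225 against 323, 312 and 344 (0.47 ± 0.14, adjusted p = 0.0411), without overlap, but lost its call on leaving out any single fish. Of 54 autosomal members of the cell cycle list, 33 were above 0 and the median was 0.04. Without male 2, 22 were above 0 and the median was -0.05, and without female 2 these were 25 and -0.02. On leaving out any other fish the median lay between 0.04 and 0.10.

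Since many genes change between stage 20 and hatching, each stage 23 fish was placed on the axis from stage 20 (0) to 0 dph (1) by its autosomal expression. Females stood at 0.510, 0.495 and 0.534 and males at 0.537, 0.421 and 0.515. Male 2 was the least advanced of the 6. The sexes overlapped, and the difference of males minus females was -0.02 (exact permutation test over fish, two-sided, p = 0.9, where 3 against 3 cannot give less than 0.1). Of the 29 autosomal genes called higher in females, 12 rise more than 2-fold between stage 20 and 0 dph (41.4%), as do 26.3% of all autosomal genes tested, and 7 of the 24 higher in males do so (29.2%). The part of small differences in age among the fish in these calls was not tested.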

How the data were processed

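RNA-seq libraries (stranded polyA, paired-end) of whole fish were made by the authors, who trimmed reads with Trimmomatic 0.39, aligned them to GAculeatus_UGA_version5 with HISAT-3N, kept uniquely mapped reads and deposited HTSeq 2.0.2 counts per gene. The deposited normalized values (signal) are those counts divided by DESeq2 1.44.0 size factors, and every level quoted is in this unit. The SAMtools 1.17 step and R 4.4.1 are named in the submitters' notes. The authors' own comparison tables were not used, apart from their gene names and chromosomes.

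Counts were fitted with edgeR 4.0.16 in R 4.3.3 (quasi-likelihood test, TMM factors, filterByExpr, 1 factor of stage and sex, all 36 libraries), with the contrast of males minus females at stage 23 and Benjamini-Hochberg adjustment over all 22168 genes tested at 0.05. SE is the log2 fold change divided by the root of the F statistic, and intervals are 1.96 SE. Counted reads per library over the series ran from 8637205 to 52089185, so low genes were compared with less precision in the shallower libraries. Intervals and floors cover no batch effect. The fit was tested on simulated data with known changes.

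Chromosomes came from the authors' gene tables, then from the RefSeq gene table of fGasAcu3.hap1.1, and otherwise from 10 neighbours on each side in the order of gene identifiers. Genes on the Y in the RefSeq gene table whose neighbours lay on the X were an exception. Such genes were counted as X-linked and have no place in the order along the X. Symbols were matched by name. Both sources placed 2749 genes, and 2738 of them on the same chromosome. In all 1018 genes were X-linked, 622 Y-linked, 21005 autosomal and 2613 not placed. Y-linked genes carry no names in these tables, so X and Y copies were not paired.

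Autosomal genes named are the 12 with the largest difference in each direction among those called, without overlap and with a mean of at least 20. X-linked genes named are the 10 with the lowest p among those called with a gene name or a product description, and any called higher in males. List members are named where called, and 13 gonad and cell cycle genes are always given. Other genes were chosen after their values were seen. The comparison and the gene lists were chosen with earlier results of these data known. Alternatives were DESeq2 1.42.0 (genes with at least 10 reads), RLE factors, TMM factors from autosomal genes, no filter (at least 1 read), the 6 libraries alone, a replicate block, and leaving out each fish.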

Additional observations from a re-analysis of the deposited data

Results flagged for a closer look

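The sex difference of sh3glb2a at stage 23 stood apart from that at the other 5 stages, by 0.91 on the log2 scale (edgeR interaction contrast, adjusted p = 0.0392). Counts were 553, 580 and 568 in females and 649, 1124 and 1340 in males at stage 23. At the other stages no fish of either sex was below 735. The call was lost without female 3 or male 2, when no gene passed.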

How the results depend on the processing

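The number of genes called was 1090 and stayed between 1018 and 1132 under every alternative, X-linked calls between 553 and 625, Y-linked calls between 322 and 365, and called list members between 16 and 22. The autosomal count of 53 ranged from 44 to 77 but fell to 6 when p-values were adjusted over autosomal genes alone. Its membership moved more: 23 to 32 of the 53 were still called on leaving out a fish, where 44 to 56 genes were called, and 51 with DESeq2 (77 called). With the 6 stage 23 libraries alone, 35 of the 53 were still called, among 62 called. The genes lost there include casp10, cdc25b, gpr160, kbtbd12 and LOC120817054. The X-linked median of -0.95 moved by more than the spread between fish of a sex (SD 0.0123), to -0.92 with DESeq2, -0.93 with RLE factors and -0.96 with TMM factors from autosomal genes, and lay between -0.97 and -0.93 on leaving out a fish. The difference from other stages was called for 1 gene, for 0 when low genes were kept, for 3 with the replicate block, and for 0 to 7 on leaving out a fish. Called named genes kept their direction under every alternative that tested them, and their call was lost in 121 comparisons. Of the 79 called named genes, 51 were called under each of the 12 settings. The adjustment over autosomal genes alone is not among these comparisons. The direction of 5 uncalled genes turned on leaving out a fish: amh, LOC120827768 (sox9b) and adat1 without female 1, and ddx4 and hsd17b1 without male 1. Over the fish left out, the log2 fold change ranged from -0.593 to 0.0783 for amh, from -0.0039 to 0.1463 for LOC120827768, from -0.255 to 0.0826 for adat1, from -0.2424 to 0.5402 for ddx4 and from -2.7472 to 0.8579 for hsd17b1. Position between stages differed by -0.03 over the 1000 genes with the largest change (exact permutation p = 0.7).

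Replicate numbers do not pair the fish: same-numbered males and females had correlations of 0.034, -0.048 and 0.026 in their deviations from the group means. With a replicate block, 1089 genes were called, 69 of them autosomal, of which 44 were shared with the fit without it. The pairing of X and Y copies was not run because no names link them. Depth limits genes under about 20 normalized counts, such as dmrt1, gsdf and amhrII.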
